A study of Mus musculus with 6 samples.

Results

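The core genes of the circadian clock, *Per1*, *Per2*, *Per3*, *Cry1*, *Cry2*, *Arntl*, *Clock*, *Nr1d1*, *Nr1d2* and *Dbp*, were followed in the retina of mice with and without *Yap* deletion. These 10 genes were chosen by name and matched by symbol among the 55421 genes of the count table. All 10 had enough counts to be tested, among 16575 genes tested. The retinas came from 2-month-old mice. There were 3 control retinas, of genotype *Yap*fl/fl (YR612, YR613, YR615), and 3 *Yap* cKO retinas, of genotype *Yap*fl/fl;*Rax*CreERT2 (YR711, YR713, YR714). Both groups carried the floxed *Yap* alleles and both received 4-hydroxytamoxifen (4OH-T) at postnatal days 10 and 14, and the control genotype names no Cre. In the *Yap* cKO line the inducible Cre is driven from *Rax*, which in the postnatal eye limits recombination to Müller glia and the non-pigmented epithelium of the ciliary body, and the other cells of the retina are not targeted. The mice were kept under a light and dark cycle, and the hour at which each retina was taken is not given in the sources used here.

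The clock is a transcriptional loop found in nearly all cells. ARNTL (also called BMAL1) and CLOCK pair and bind E-boxes, short DNA motifs near *Per*, *Cry*, *Nr1d* and *Dbp* genes, and switch these on. PER and CRY proteins then return to the nucleus and silence that pair. NR1D1 and NR1D2 (REV-ERBα and REV-ERBβ) repress *Arntl*, and DBP carries the rhythm to genes with a D-box, among them *Per* genes. In mammals the retina holds its own clock, which sets daily rhythms of dopamine and of visual sensitivity, and light also switches on *Per1* and *Per2* directly through cAMP response elements (CREs). Because *Arntl* peaks at about the opposite time of day from *Nr1d1* and *Dbp*, with the *Per* and *Cry* genes following, a retina collected earlier or later can differ in many of these genes at once and in opposite directions.

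Motifs of the loop were looked up in the 250 bases before each RefSeq start site (GRCm38.p6). Of the 10 genes, 9 had an entry, with 13 start sites in all, and *Per2* was not in the sequence table used. The letters searched, on both strands, were CACGTG for the E-box, TTATGTAA or TTATGCAA for the D-box, TAGGTCA for the core of the element shared by ROR and NR1D proteins and TGACGTCA for the CRE. The E-box letters stood upstream of *Cry1* and *Per1*, against 6.02% of the 32851 mouse upstream stretches of this length. D-box letters stood upstream of *Per1* and *Per3*, against 1.5% of those stretches. The ROR core and the CRE, which 2.23% and 1.55% of all stretches hold, were in none of the 13. The 3 stretches with a motif are shown because they hold the clock's own motifs in genes described next. They are written 5′ to 3′ with the motif in capitals, for *Per1* from chr11:69098699-69098947 (+ strand), for *Per3* from chr4:151044666-151044915 (− strand) and for *Cry1* from chr10:85185065-85185304 (− strand), leaving out bases that the count table's annotation places in an exon of the gene.
Per1: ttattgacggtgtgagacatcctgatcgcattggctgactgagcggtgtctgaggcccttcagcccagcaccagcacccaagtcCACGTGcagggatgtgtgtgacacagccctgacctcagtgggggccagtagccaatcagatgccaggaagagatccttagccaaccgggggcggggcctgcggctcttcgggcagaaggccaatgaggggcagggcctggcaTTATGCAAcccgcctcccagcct
Per3: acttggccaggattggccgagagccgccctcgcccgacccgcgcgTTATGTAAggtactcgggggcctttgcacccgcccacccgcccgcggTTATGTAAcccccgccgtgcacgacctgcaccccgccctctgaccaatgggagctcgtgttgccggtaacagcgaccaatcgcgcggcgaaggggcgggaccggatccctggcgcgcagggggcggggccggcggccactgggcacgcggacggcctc
Cry1: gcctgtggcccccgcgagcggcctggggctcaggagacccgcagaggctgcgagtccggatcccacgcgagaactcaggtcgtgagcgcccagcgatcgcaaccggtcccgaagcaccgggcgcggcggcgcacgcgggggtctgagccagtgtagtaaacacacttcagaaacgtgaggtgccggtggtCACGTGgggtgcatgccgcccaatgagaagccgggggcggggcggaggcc
In *Per1* the E-box lay 166 to 161 bases and the D-box 24 to 17 bases before the start. *Per3* held the D-box letters at 205 to 198 and again at 158 to 151 bases, and *Cry1* an E-box at 60 to 55 bases before its start. A match describes letters only, and whether a protein bound there was not measured. As only exact letters in the 250 upstream bases were searched, a stretch without a match does not show that the gene lacks the element.

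The deletion itself was visible in every library. *Yap1* stood at 9.48, 9.52 and 9.83 TPM (counts scaled for exonic length and depth) in the control retinas and at 3.99, 3.76 and 3.94 TPM in the *Yap* cKO retinas. Its log2 fold change was −1.36 (SE 0.093, adjusted p = 0.000282, edgeR quasi-likelihood test with Benjamini-Hochberg adjustment over all genes tested). Total counts ranged from 24261799 to 35067068 per retina. Expression shifted with gene length from library to library: Spearman's rho across genes, between length and expression relative to the other libraries, was −0.413, 0.172 and −0.405 in the control retinas and 0.396, 0.385 and −0.151 in the *Yap* cKO retinas. For that reason the log2 fold change of each clock gene is also given with length correction. Rod markers summed to 50740 to 54144 TPM in control retinas against 47763 to 51923 TPM in *Yap* cKO retinas, and all 5 were present. The 6 Müller glia markers summed to 6606 to 6832 and 5763 to 6162 TPM, and 4 of the 6 had a lower mean in *Yap* cKO, with none past the adjusted threshold.

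Among the 10 clock genes, *Per2* alone passed the test, and it rose in *Yap* cKO retinas. *Per1*, *Dbp* and *Nr1d1* had lower means and the other 6 genes higher means in *Yap* cKO retinas, none of them past the adjusted threshold. With the threshold at an adjusted p of 0.05, 1 of the 10 was higher and 0 lower, where 0.501% of all tested genes were higher, 0.989% lower and 1.49% either. No clock gene also met the further criteria of a 1.5-fold change and a mean of 5 TPM, which 0.796% of tested genes met. At an unadjusted p of at most 0.05, 2 were higher (*Per2* and *Clock*; 12% of tested genes) and 2 lower (*Per1* and *Dbp*; 9.42% of tested genes). The median log2 fold change of the 10 was 0.10, and 0.012 after length correction, beside 0.0017 for all tested genes. The 3 retinas of each group did not overlap in normalised log2 CPM (counts scaled for depth) for *Per2* and *Arntl*, higher in *Yap* cKO (12.3% of tested genes), and for *Per1* and *Nr1d1*, lower in *Yap* cKO (12.4% of tested genes). With such shares among all genes, neither the unadjusted p nor the non-overlap is read as particular to the clock genes. As the libraries are from whole retina, fewer cells of a type and less RNA per cell cannot be told apart.

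**Figure D1:**
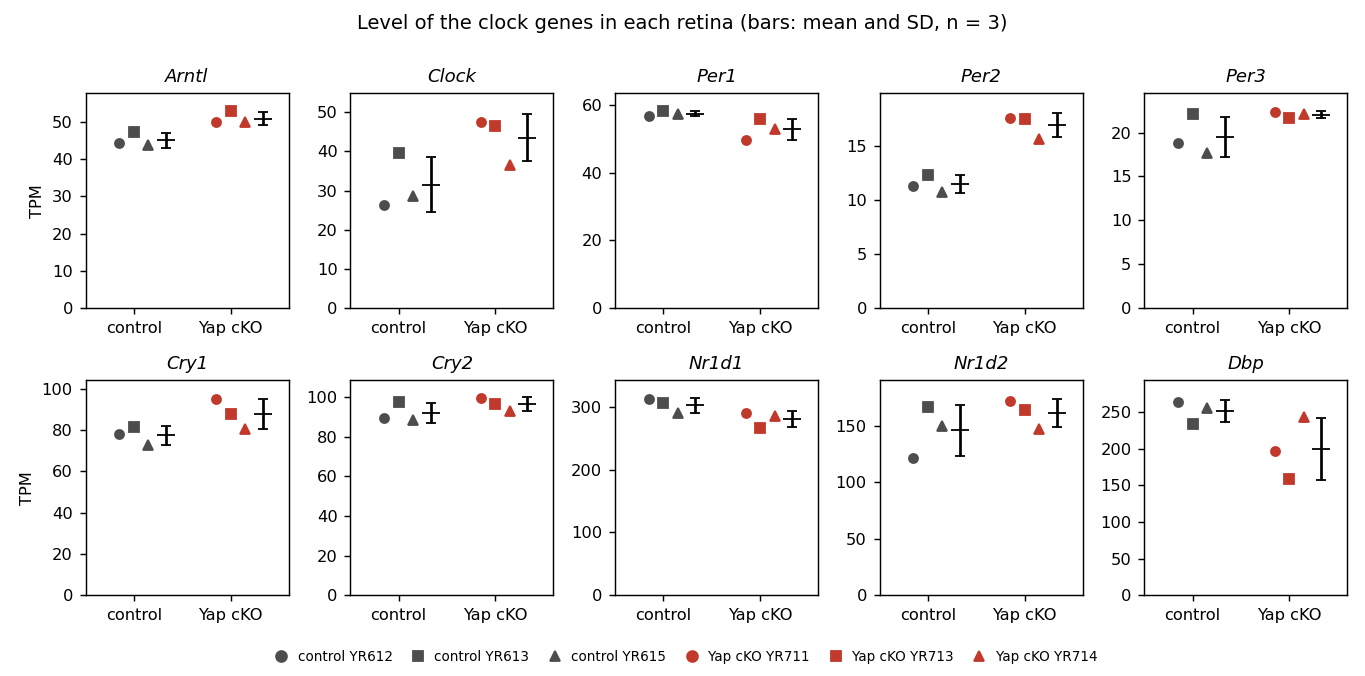
Level of each clock gene in TPM (vertical axes, each starting at 0) in the 3 control and 3 *Yap* cKO retinas, with 1 point per retina and the mean and SD beside them. *Per2* lies between 10.7 and 12.3 TPM in control retinas and between 15.6 and 17.6 TPM in *Yap* cKO retinas, whereas *Cry2*, *Nr1d2* and *Per3* overlap between the groups.

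The levels spanned a wide range, with the *Nr1d* genes and *Dbp* at the top and *Per2* at the bottom. In control retinas the mean was 303 ± 11.96 TPM for *Nr1d1*, 251 ± 15.1 for *Dbp*, 146 ± 22.7 for *Nr1d2*, 91.9 ± 4.96 for *Cry2*, 77.4 ± 4.53 for *Cry1*, 57.4 ± 0.838 for *Per1*, 45.1 ± 1.98 for *Arntl*, 31.5 ± 7.08 for *Clock*, 19.5 ± 2.30 for *Per3* and 11.4 ± 0.818 for *Per2* (mean ± SD, n = 3). No neighbours in that order overlapped among the control retinas. In the *Yap* cKO retinas *Dbp* (158 to 243 TPM) overlapped *Nr1d2* (148 to 172 TPM), *Cry2* (93.0 to 99.8 TPM) overlapped *Cry1* (80.5 to 95.2 TPM), and *Per1* (49.6 to 55.8 TPM) overlapped *Arntl* (49.9 to 53.0 TPM).

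*Per2*, a repressor of the loop whose gene also responds to light (ENSMUSG00000055866; chr1:91415982-91459324, − strand, GRCm38), stood at 11.3, 12.3 and 10.7 TPM in the control retinas (in the order YR612, YR613, YR615, kept throughout) and at 17.6, 17.5 and 15.6 TPM in the *Yap* cKO retinas (in the order YR711, YR713, YR714). These values rest on 437, 494 and 481 counts and on 658, 890 and 624 counts. Every *Yap* cKO retina lay above every control retina, and the gap between the groups exceeded the range within either. The log2 fold change was 0.50 (SE 0.091, 95% interval 0.30 to 0.71, adjusted p = 0.0332, edgeR quasi-likelihood test), which is 1.42-fold, and *Per2* ranked 155 of the tested genes by p. With length correction it was 0.46 (adjusted p = 0.0187), while tested genes in the same length decile had a median of 0.038.

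*Per2* kept its direction but not always its call when 1 retina was left out. The log2 fold change stayed between 0.45 and 0.54. The adjusted p was 0.0194 without YR613 and 0.0233 without YR714, but 0.139 without YR612, 0.168 without YR615, 0.0785 without YR711 and 0.174 without YR713 (edgeR). By *Xist* and *Ddx3y*, YR612, YR613 and YR711 were male and YR615, YR713 and YR714 female. The difference in *Per2* was 0.49 on the log2 scale among males and 0.58 among females, and the gene passed with sex as a covariate (adjusted p = 0.0422, edgeR). YR711 was the only male *Yap* cKO retina and YR615 the only female control retina. Each within-sex difference given here thus rests on a single retina on one side.

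The other *Per* genes did not pass the test. *Per1*, likewise a repressor and light-responsive (ENSMUSG00000020893; chr11:69095217-69109960, + strand), stood at 56.6, 58.3 and 57.3 TPM in control retinas against 49.6, 55.8 and 52.9 TPM in *Yap* cKO retinas. All 3 *Yap* cKO values lay under the control values, although YR713 came close to them. The log2 fold change was −0.18 (SE 0.077, 95% interval −0.35 to −0.0066, adjusted p = 0.219, edgeR), and −0.22 with length correction (adjusted p = 0.125, edgeR). The difference was −0.29 among males and −0.12 among females. *Per3*, the family member the loop depends on least (ENSMUSG00000028957; chr4:151003652-151044665, − strand), stood at 18.8, 22.1 and 17.6 TPM in control retinas against 22.4, 21.6 and 22.1 TPM in *Yap* cKO retinas. Control YR613 lay within the *Yap* cKO values, and the log2 fold change of 0.12 (SE 0.088, adjusted p = 0.445, edgeR) became −0.0076 with length correction. The span of *Camta1* overlaps that of *Per3* on the same strand, and how far this affected the counts was not tested.

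The *Cry* genes, whose proteins are the main repressors of the ARNTL and CLOCK pair, overlapped between the groups. *Cry1* (ENSMUSG00000020038; chr10:85131700-85185064, − strand) stood at 78.1, 81.6 and 72.6 TPM in control retinas against 95.2, 87.8 and 80.5 TPM in *Yap* cKO retinas. The lowest *Yap* cKO value, in YR714, was under that of control YR613. Its log2 fold change was 0.12 (SE 0.083, 95% interval −0.063 to 0.31, adjusted p = 0.400, edgeR), and 0.18 with length correction (adjusted p = 0.278, edgeR). *Cry2* (ENSMUSG00000068742; chr2:92403646-92434043, − strand) stood at 89.7, 97.5 and 88.3 TPM against 99.8, 96.6 and 93.0 TPM. Its log2 fold change was 0.013, with a 95% interval of −0.14 to 0.17, and −0.044 with length correction. The sign changed under 5 of the 15 alternatives.

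Of the activators, *Clock* differed most between single retinas. *Clock* (ENSMUSG00000029238; chr5:76209868-76304792, − strand) stood at 26.4, 39.6 and 28.6 TPM in control retinas against 47.5, 46.4 and 36.6 TPM in *Yap* cKO retinas. Control YR613 lay above *Yap* cKO YR714, so the groups overlapped. This was a log2 fold change of 0.41 (SE 0.14, 95% interval 0.095 to 0.73, adjusted p = 0.151, edgeR). *Clock* is the longest of the 10 genes, at 13727 bases of exon, and the genes in its length decile had a median of 0.21. With length correction its log2 fold change was 0.19 (adjusted p = 0.192, edgeR). Without YR613 it was 0.58 and passed (adjusted p = 0.0169, edgeR). *Ube2n-ps1* and *Gm43658* overlap *Clock* on its strand.

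*Arntl*, the partner of *Clock* and the gene whose loss alone stops the rhythm (ENSMUSG00000055116; chr7:113207465-113314126, + strand), stood at 44.2, 47.4 and 43.7 TPM in control retinas against 50.0, 53.0 and 49.9 TPM in *Yap* cKO retinas. The groups did not overlap, but the step was small, with a log2 fold change of 0.12 (SE 0.071, 95% interval −0.043 to 0.28, adjusted p = 0.355, edgeR), beside a median of 0.12 in its length decile, and 0.032 with length correction.

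The *Nr1d* genes encode the nuclear receptors that repress *Arntl*. *Nr1d1* (ENSMUSG00000020889; chr11:98767932-98775333, − strand) stood at 314, 306 and 290.1 TPM in control retinas against 291, 267 and 287 TPM in *Yap* cKO retinas. On the TPM scale *Yap* cKO YR711 just passed control YR615, whereas in log2 CPM all 3 *Yap* cKO retinas were lower. Over all tested genes the median log2 ratio of mean TPM was 0.059, so TPM runs slightly higher in *Yap* cKO than normalised CPM does. *Nr1d1* had a log2 fold change of −0.17 (SE 0.078, adjusted p = 0.254, edgeR), and −0.10 with length correction. *Nr1d2* (ENSMUSG00000021775; chr14:18204054-18239127, − strand) stood at 122, 167 and 149.7 TPM against 172, 164 and 148 TPM, with a log2 fold change of 0.086 (SE 0.10, adjusted p = 0.638, edgeR) and 0.053 with length correction. Only control YR612 was low for *Nr1d2*. *Thra* overlaps *Nr1d1* on the opposite strand, which the stranded counting keeps apart.

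*Dbp*, a D-box activator and direct target of the ARNTL and CLOCK pair (ENSMUSG00000059824; chr7:45705088-45710203, + strand), stood at 264, 235 and 256 TPM in control retinas against 197, 158 and 243 TPM in *Yap* cKO retinas. YR711 and YR713 were below all control retinas, whereas YR714 was within them, and the SD was 15.1 TPM in control retinas against 42.6 TPM in *Yap* cKO (n = 3 each). The fitted log2 fold change was −0.39 (SE 0.15, 95% interval −0.72 to −0.055, adjusted p = 0.185, edgeR), and −0.32 with length correction (adjusted p = 0.175, edgeR). It was −0.24 without YR713 (the smallest over all settings) and −0.58 without YR714, where it passed (adjusted p = 0.0249, edgeR). The difference was −0.42 among males, with YR711 as the only *Yap* cKO retina, and −0.42 among females, with YR615 as the only control. Among these females YR713 stood at −0.53 and YR714 at 0.13 in log2 CPM relative to the mean of all retinas, against 0.23 in YR615.

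**Figure D2:**
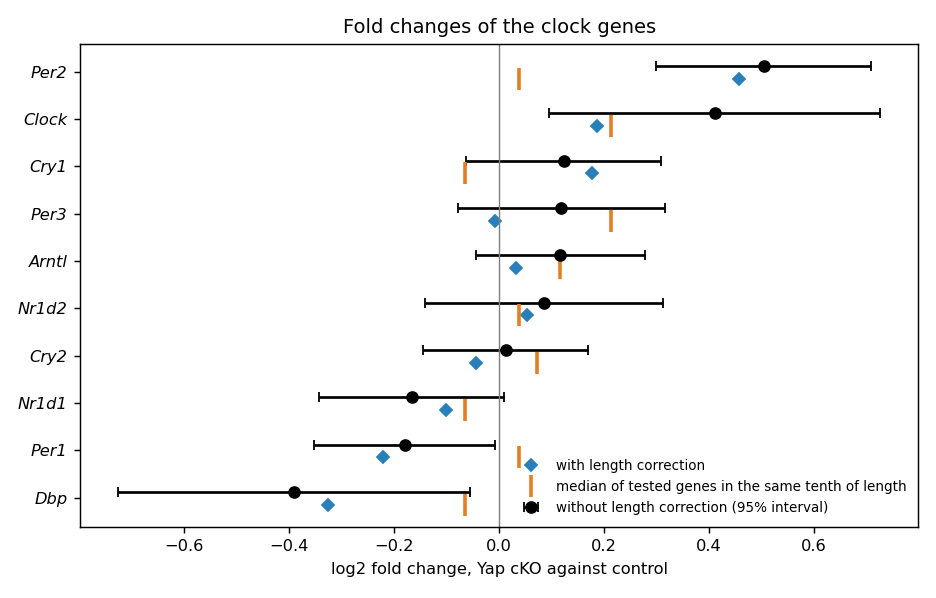
Log2 fold change of each clock gene, *Yap* cKO against control (horizontal axis, black circles with 95% intervals), with the length-corrected value (blue diamonds) and the median of tested genes in the same decile of exonic length (orange ticks). *Per2* keeps 0.46 of its 0.50 with the correction, whereas *Clock* goes from 0.41 to 0.19 and *Per3* from 0.12 to −0.0076.

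**Figure D3:**
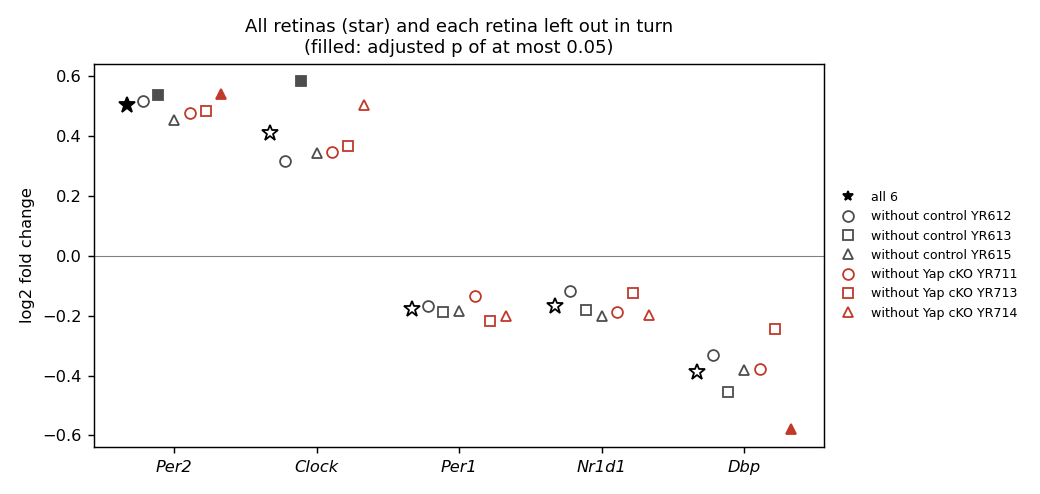
Log2 fold change (vertical axis) of the 5 clock genes with an unadjusted p under 0.1 in all retinas (stars) and with 1 retina omitted at a time (other symbols, filled where the adjusted p is at most 0.05). Each gene keeps its sign throughout, *Per2* is filled without YR613 and without YR714, *Clock* without YR613 and *Dbp* without YR714.

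Read together, the 10 genes were compared for a difference in phase, that is, in the time of day each retina was at. A clock that is earlier or later can shift the mean of the E-box genes *Dbp*, *Per1*, *Per2*, *Per3*, *Nr1d1* and *Nr1d2* against *Arntl*. As the *Per* genes follow *Nr1d1* and *Dbp* in time, single genes of the E-box group need not move in the same direction. *Clock* was set beside *Arntl* as its partner, and how far *Clock* cycles in these retinas was not measured. The mean log2 CPM of those 6 genes minus the mean of *Arntl* and *Clock* was 0.022, −0.21 and −0.030 in the control retinas and −0.38, −0.47 and −0.20 in the *Yap* cKO retinas. Control YR613 lay just under *Yap* cKO YR714, so the groups overlapped. The difference of the group means was −0.28, against a pooled SD of 0.13 (n = 3 each). With length correction the values were −0.11, −0.18 and −0.14 in control and −0.25, −0.37 and −0.22 in *Yap* cKO, a difference of −0.14 with a pooled SD of 0.063. Those corrected values did not overlap between the groups. With that correction the log2 fold change was 0.19 for *Clock* and 0.032 for *Arntl*, and the corrected contrast was not computed against *Arntl* alone. Without length correction, the difference was −0.12 when set against *Arntl* alone and −0.19 without *Dbp*. The uncorrected difference against both genes stayed between −0.35 and −0.21 with 1 retina left out. This contrast was described, not tested.

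Signs differed within the E-box group, whose genes do not all peak at the same time of day. *Per2* was higher in *Yap* cKO retinas, the means of *Dbp*, *Per1* and *Nr1d1* were lower, and *Per3* and *Nr1d2* lay in between. The ratio of *Per2* to *Per1* in TPM was 0.200, 0.211 and 0.186 in the control and 0.355, 0.313 and 0.295 in the *Yap* cKO retinas. The ratio of *Per2* to *Nr1d1* was 0.0361, 0.0402 and 0.0368 against 0.0605, 0.0655 and 0.0544, and that of *Per2* to *Dbp* 0.0429, 0.0525 and 0.0418 against 0.0893, 0.110 and 0.0640. The groups did not overlap in any of these ratios. Pairs with *Per2* were chosen after its values were seen, so no test is attached to them. The ratio of *Dbp* to *Arntl*, a common marker of phase, was 5.96, 4.95 and 5.85 in control and 3.94, 2.99 and 4.88 in *Yap* cKO retinas. The groups did not overlap, with *Yap* cKO YR714 close to control YR613. None of these ratios was corrected for length. *Dbp* and *Nr1d1* have 2993 and 3077 bases of exon, *Per2* has 5856 and *Arntl* 7523. The ratio of *Dbp* to *Arntl* was lowest in YR713 and YR711, where rho with length was highest (0.385 and 0.396). The part of gene length in the ratios was not tested. As the hour of collection is not given, how far time of day moved with the groups was not tested. The animal codes run from YR612 to YR615 in control and from YR711 to YR714 in *Yap* cKO. Anything that goes with these series of codes cannot be told apart from genotype.

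**Figure D4:**
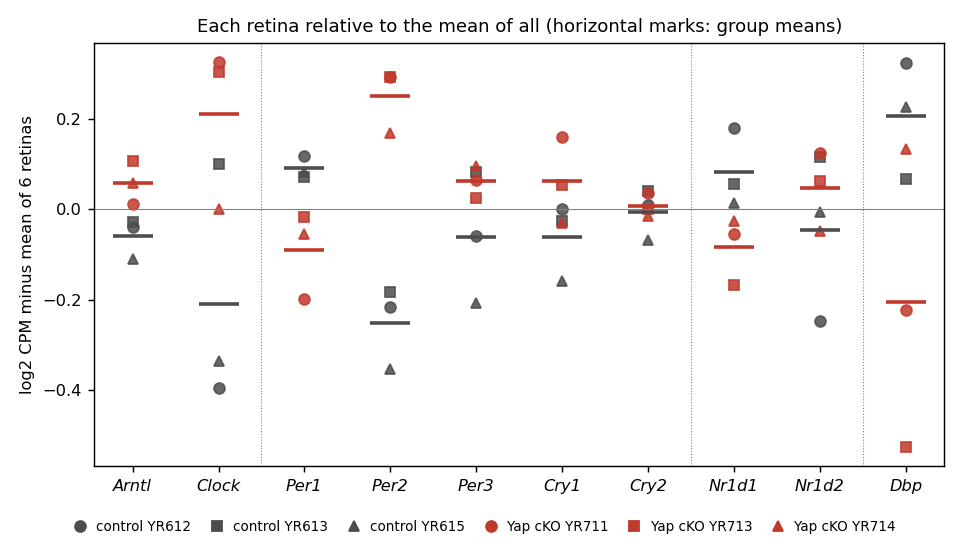
Log2 CPM of each clock gene in each retina minus its mean over the 6 retinas (vertical axis), with the genes in order of their roles (activators, *Per* and *Cry* repressors, *Nr1d* receptors, *Dbp*) and horizontal marks at the group means. The marks of *Yap* cKO lie above those of control for *Arntl*, *Clock* and *Per2* and below them for *Per1*, *Nr1d1* and *Dbp*, with *Yap* cKO YR713 lowest for *Dbp* at −0.53.

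**Figure D5:**
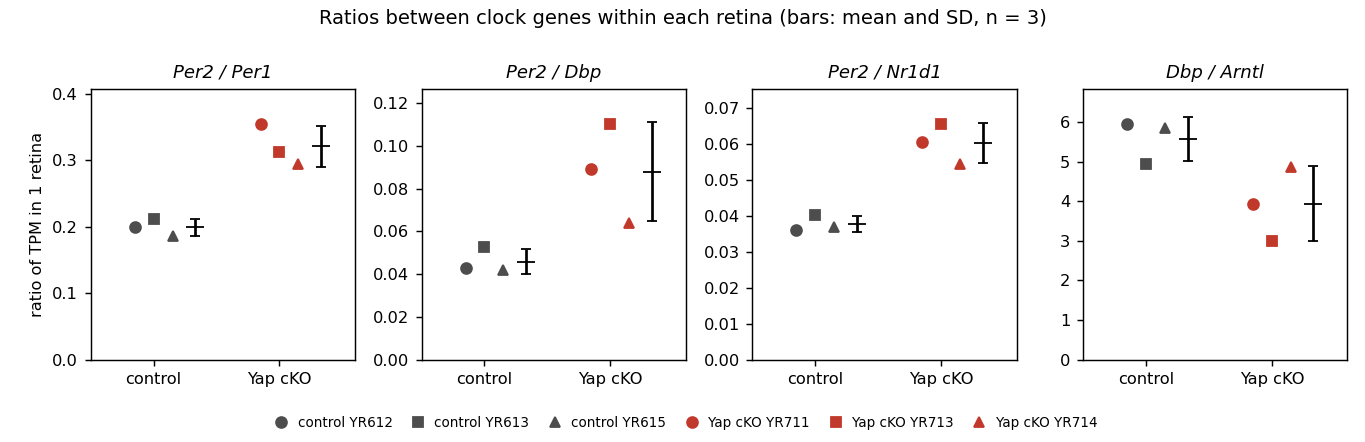
Ratios of TPM between clock genes within each retina (vertical axes, each starting at 0), with 1 point per retina and the mean and SD per group. The ratios are not corrected for gene length. *Per2* relative to *Per1* is 0.186 to 0.211 in control and 0.295 to 0.355 in *Yap* cKO retinas, and *Dbp* relative to *Arntl* is 4.95 to 5.96 in control and 2.99 to 4.88 in *Yap* cKO retinas.

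The clock genes other than these 10 gave no call. In all, 36 further genes of the pathway were listed and 33 were tested, of which 0 passed the adjusted threshold by edgeR's quasi-likelihood test. At an unadjusted p of at most 0.05, 5 were higher and 7 lower, where 12% and 9.42% of all tested genes were. DESeq2 and edgeR's likelihood ratio test each called 1, *Adcy1*, among 892 and 1025 genes called in all. The fit with length correction also called 1, *Bhlhe41*, among 459 genes called in all. *Bhlhe41*, a repressor that acts at E-boxes, stood at 63.5, 67.2 and 65.8 TPM in control retinas against 64.2, 56.5 and 51.2 TPM in *Yap* cKO retinas. *Bhlhe41* had a log2 fold change of −0.25 (SE 0.085, adjusted p = 0.148, edgeR), and −0.32 with length correction (adjusted p = 0.0483, edgeR). Of 11 further genes of the E-box and D-box loop, 6 had a higher and 5 a lower mean, with a median log2 fold change of 0.018. *Ciart*, a repressor driven by E-boxes, stood at 24.2, 24.8 and 20.8 TPM in control retinas against 21.3, 16.7 and 18.0 TPM in *Yap* cKO retinas (log2 fold change −0.38, SE 0.13, adjusted p = 0.143, edgeR, and −0.28 with length correction). All 3 *Yap* cKO retinas were below the control retinas in log2 CPM. The log2 fold change was 0.40 (SE 0.19, adjusted p = 0.247, edgeR) for *Npas2*, which can stand in for *Clock*, and −0.31 (SE 0.17, adjusted p = 0.306, edgeR) for *Rorb*, a retinal receptor of the ROR family. With length correction *Npas2* was at 0.39 and *Rorb* at −0.49.

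The kinases and ubiquitin pathway genes that set the lifetime of PER and CRY proteins numbered 8, with a higher mean for 7, a lower mean for 1 and a median log2 fold change of 0.13, which length correction brought to 0.035. They ranged from −0.20 for *Usp2*, a deubiquitinase, to 0.26 for *Btrc*, which marks PER proteins for degradation. With length correction *Usp2* was at −0.21 and *Btrc* at −0.019 (adjusted p = 0.917, edgeR), so the sign of *Btrc* turned. Among rhythmic outputs known from the retina and other tissues, 5 of 8 were tested. *Adcy1*, an adenylyl cyclase whose expression cycles in the retina, had the lowest adjusted p of all 33 genes, 0.0904 (log2 fold change 0.58, SE 0.15, edgeR), with 0.39 after length correction. *Wee1*, a cell cycle kinase with E-boxes, stood at 9.71, 12.2 and 11.1 TPM in control retinas against 16.0, 13.0 and 14.2 TPM in *Yap* cKO retinas (log2 fold change 0.33, SE 0.12, adjusted p = 0.172, edgeR, and 0.37 with length correction). The 9 genes that respond to light or glucocorticoids had a lower mean in 7 cases and a higher mean in 2, with a median of −0.16 and a lowest adjusted p of 0.144 (edgeR). They include *Nr4a1* (−0.46), *Sik1* (−0.45) and *Dusp1* (−0.43), all of the opposite sign to *Per2*, and *Egr1* (0.52, SE 0.46). With length correction these were −0.42, −0.48, −0.38 and 0.52, in the same order.

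The genes whose profile over the 6 retinas lay closest to *Dbp* and to *Arntl* were not clock genes. Likeness was the root mean square difference of log2 CPM, each gene centred on its own mean, among 11993 genes with a mean of at least 5 TPM. For *Dbp* the nearest were *Rps10-ps1* (0.042), *Dcxr* (0.052), *Ccl27a* (0.055), *Hes6* (0.065) and *Fam213b* (0.067), and the nearest clock gene, *Nr1d1*, ranked 1518. For *Arntl* the nearest were *Ccdc177*, *Cul1*, *Trak1*, *Lima1* and *Hnrnph1* (0.013 to 0.023), and the nearest clock gene, *Csnk1d*, ranked 182. With 6 libraries many genes share a profile.

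Markers of tissue next to the neural retina also varied between retinas, and some of the sums overlapped between the groups. The 5 melanin pigment markers summed to 70.6 to 77.9 TPM in control retinas against 16.7 to 47.7 TPM in *Yap* cKO retinas, all 5 lower, of which *Pmel* passed. The 5 retinal pigment epithelium markers, all lower with none past the threshold, summed to 620 to 686 and 193 to 668 TPM. For *Ttr*, the most abundant of them, YR714 stood at 469 TPM, within the control values of 449 to 486 TPM. YR711 and YR713 were at 148 and 271 TPM. The 7 markers of the ciliary body non-pigmented epithelium summed to 418 to 430 and 411 to 484 TPM. The largest part of that sum was *Aqp1*, at 224 to 238 and 262 to 316 TPM, and *Aqp1* and *Tgfb2* had higher means. The other 5 were lower, with *Optc* past the threshold, at 45.6 to 50.2 and 2.44 to 8.39 TPM. Fibroblast markers summed to 3.76 to 5.64 and 1.44 to 2.12 TPM. Of these, *Col1a2* passed, at 3.09 to 4.37 against 0.577 to 1.06 TPM. *Col1a1* (log2 fold change 0.076) and *Col3a1* (−0.0042) hardly differed, and *Dcn* and *Lum* were not tested. Lens markers summed to 3.47 to 11.8 and 1.90 to 2.79 TPM with *Lim2* at 0. Among them *Cryaa* stood at 5.64 TPM in control YR615, against 0.730 and 0.843 in YR612 and YR613. Red blood cell markers summed to 44.2 to 78.8 and 32.0 to 48.8 TPM, which overlapped. The part of these tissues in the clock gene values was not tested.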

How the data were processed

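The deposited table holds raw counts of the 6 retinas. Per the labels and the file header, the authors mapped stranded read pairs with STAR 2.7.3a (GRCm38) and counted fragments per gene with featureCounts 1.6.2 (strand setting 2, annotation release 98). The 10 clock genes, the further gene lists and the marker lists were chosen with earlier results of these data known. Genes were filtered with filterByExpr, scaled by TMM and compared by the quasi-likelihood test of edgeR 4.0.16 in R 4.3.3. The p-values were adjusted after Benjamini and Hochberg over 16575 genes. TPM values were computed from counts and exonic length. Log2 CPM used a prior count of 2. The length correction fitted a loess curve (span 0.3) of relative expression against length in each retina. All 10 clock genes were named, at most the 4 largest changes of each further list and its called genes, and the 5 genes nearest to *Dbp* and to *Arntl*. Of these, 1 gene is not reported here. The fit was tested on simulated counts. Alternatives were DESeq2 1.42.0, the likelihood ratio test, limma-voom (limma 3.58.1), other size factors, no filter and each retina left out. The sex covariate with length correction and the within-sex differences were added after seeing the data. The p-values set the difference between the groups against the spread between retinas within the groups.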

Additional observations from a re-analysis of the deposited data

How the results depend on the processing

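Limits first. With 3 retinas a group, the call on *Per2* was lost without YR612, YR615, YR711 or YR713 and kept without YR613 or YR714. *Per2* was called by every other tool and scaling run, with adjusted p of 0.000903 by DESeq2 and 0.0319 by limma-voom. Over the alternatives the median log2 fold change of all genes stayed between −0.015 and 0.0073. No paired analysis was possible because the labels carry animal codes only, with no replicate number shared between groups.

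All genes called numbered 247, and 892 by DESeq2, 1025 by the likelihood ratio test, 1865 without the filter on low counts, 459 with length correction, 151 with sex as covariate, 433 with both, and 49 to 1490 with 1 retina left out. The fit without the filter tested 30129 genes, those with 1 retina left out 16830 to 16913, and the others 16575. Clock genes called were 3 without the filter (*Per2*, *Clock* and *Dbp*) and 0 to 2 with 1 retina left out. Other clock pathway genes called were 1 by DESeq2 and by the likelihood ratio test (*Adcy1*), 6 without the filter, 1 with length correction (*Bhlhe41*), 3 with length correction and sex, and 0 to 4 with 1 retina left out. The phase contrast moved to −0.12 against *Arntl* alone and to −0.14 with length correction. Its leave-one-out range, without length correction, was −0.35 to −0.21. *Per3* reversed to −0.0076 with length correction. *Cry2* reversed to −0.0026 with library size only, −0.044 with length correction, −0.029 with length correction and sex, −0.018 without control YR615 and −0.0091 without *Yap* cKO YR711, and reached 0.037 without control YR613. *Nr1d2* reversed to −0.011 without control YR612 and reached 0.17 without control YR613. The other 7 clock genes kept their direction in all 15 alternatives. The cause of these changes was not tested.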
